A study of Mus musculus with 6 samples.

Results

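The genes described here are 42 genes of the extracellular matrix, of its fibrotic remodelling and of stellate cell activation, taken by symbol from the 32285 features counted in single nuclei of mouse liver. All 42 symbols were found once each. Nuclei came from the livers of 6 male mice, 18 weeks old, of the strain C57BL/6JBomTac, fed chow and fasted for 12 hours overnight before collection, with 1 library per mouse. The 3 controls were littermates with the genotype label Plvap Control. The 3 knockouts lack Plvap in hepatic stellate cells, the mesenchymal cells that store retinoids beside the sinusoid, through a Cre transgene under Lrat regulation. Both groups carry the same strain designation with that transgene in their source label, and whether the control mice carried Cre is not stated in the sources used here. The series asks how stellate cells act, through Plvap, on fatty acid use by the fasted liver. Here the question is which class of nuclei held the RNA of each matrix gene and whether its level differed with the genotype.

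In liver injury, stellate cells leave their retinoid-storing state, take up contractile filaments and deposit fibrillar collagen, driven among other signals by TGF-beta and by PDGF acting on its receptors. Newly secreted collagen is trimmed by proteases, crosslinked by lysyl oxidases and degraded by metalloproteinases, which tissue inhibitors hold back. In the uninjured liver, stellate cells, portal fibroblasts, vascular smooth muscle and endothelium maintain a thin matrix of basement membrane and fine fibrils.

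The 6 libraries held 151395899 UMIs (23153182 to 27199466 per library), and of 27297 barcodes, 77 occurred in at least 2 libraries. After filtering and removal of 805 doublet calls, 25662 nuclei were kept, 3528 to 5006 per library, with median depths of 4075.5 to 5328 UMIs. Clusters were assigned to classes by marker genes, and 7 of 37 clusters with 4.47% of nuclei were left out. The largest of them (439 nuclei) scored highest as sinusoidal endothelial but had Rspo3 and Wnt9b, markers listed for other classes, among its leading genes. Sinusoidal levels and UMI shares omit it. The main classes were sinusoidal endothelial (8254 nuclei), hepatocyte (5240), macrophage (4421), stellate (3204), T or NK (947), B (791), large vessel and lymphatic endothelial (758), cholangiocyte (532) and portal mesenchymal (125) nuclei. Stellate nuclei held all 12 stellate markers, summed to 15919 to 21801 CPM, against 638 to 1141 CPM in sinusoidal endothelium. CPM here are counts of a gene scaled by the total UMIs of its class in that mouse. The portal mesenchymal class could be split into 101 nuclei with portal fibroblast genes and 24 with smooth muscle genes. Plvap was at 213 to 241 CPM in control and at 155 to 225 CPM in knockout stellate nuclei, with overlap, and 3′ tags may lie outside its deleted part. In sums per class, fewer cells that make a gene and less RNA per cell cannot be told apart.

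Promoter windows of RefSeq (GRCm38.p6, from 250 bases before to 50 bases after the start) were held for 26 of the 42 genes. They were searched because members of 1 module may share sequence near their starts. TATAAA, the core of the TATA box, began between -40 and -20 on the coding strand in 5 of 28 member windows (17.9%), against 1.99% of all 32851 windows. On either strand and anywhere in the window it was found in 6 of 28 (21.4%), against 13.6% of all. The CArG box, the motif of serum response factor, matched in 0 of 28 member windows, Acta2 included, and in 1.63% of all windows, which says only that its strict form is not in these windows. The 5 genes are shown as the 60 bases before the start, with TATAAA in capitals. Their positions are chr1:186705990-186706049 on the minus strand for Tgfb2, chr3:54361047-54361106 on the plus strand for Postn, chr2:27079319-27079378 (plus) for Adamtsl2, chr3:95739570-95739629 (minus) for Ecm1 and chr2:13574251-13574310 (plus) for Vim.
Tgfb2: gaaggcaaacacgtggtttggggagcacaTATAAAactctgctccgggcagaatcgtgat
Postn: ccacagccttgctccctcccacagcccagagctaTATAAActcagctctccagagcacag
Adamtsl2: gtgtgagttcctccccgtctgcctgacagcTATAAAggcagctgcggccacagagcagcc
Ecm1: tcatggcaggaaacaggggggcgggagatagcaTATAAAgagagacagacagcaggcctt
Vim: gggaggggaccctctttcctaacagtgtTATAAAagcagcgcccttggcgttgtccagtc
The 16 genes without an entry were Col1a1, Col5a2, Col14a1, Lama1, Fn1, Eln, Dcn, Lum, Lox, Loxl1, Loxl2, Adamts5, Mmp2, Tgfb3, Pdgfrb and Tagln.

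Most of these genes were mesenchymal, and they divided between the rare portal cells and the common stellate cells. Of the 42 genes, 28 had their highest mean level in portal mesenchymal nuclei, 11 in stellate nuclei and 1 each in hepatocytes (Fn1), large vessel and lymphatic endothelium (Timp3) and B nuclei (Tgfb1). Stellate nuclei numbered 3204 and portal mesenchymal nuclei 125, and 31 genes had their largest share of UMIs in stellate nuclei. The ranges over 6 mice of the first and second class did not overlap for 8 genes: Col1a2, Mmp2 and Timp2 in portal mesenchymal, Lama1, Dcn and Ecm1 in stellate, Fn1 in hepatocyte and Timp3 in large vessel nuclei. With totals scaled by TMM over the tested genes of each class, 34 genes were highest in portal mesenchymal and 5 (Lama1, Dcn, Bgn, Postn and Ecm1) in stellate nuclei. On that scale Col5a1, Col4a1, Col4a2, Lum, Sparc and Pdgfra, described below as highest in stellate nuclei, were not. Those totals hold only the tested genes, 2018 in portal mesenchymal and 12027 in stellate nuclei, which by itself raises portal levels more. The shift from 28 to 34 genes was not separated from this. B and T or NK nuclei kept their full totals. Classes came from clustering in which these genes were barred from the variable genes but their neighbours in expression were not, so levels between classes are described and not tested.

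**Figure D1:**
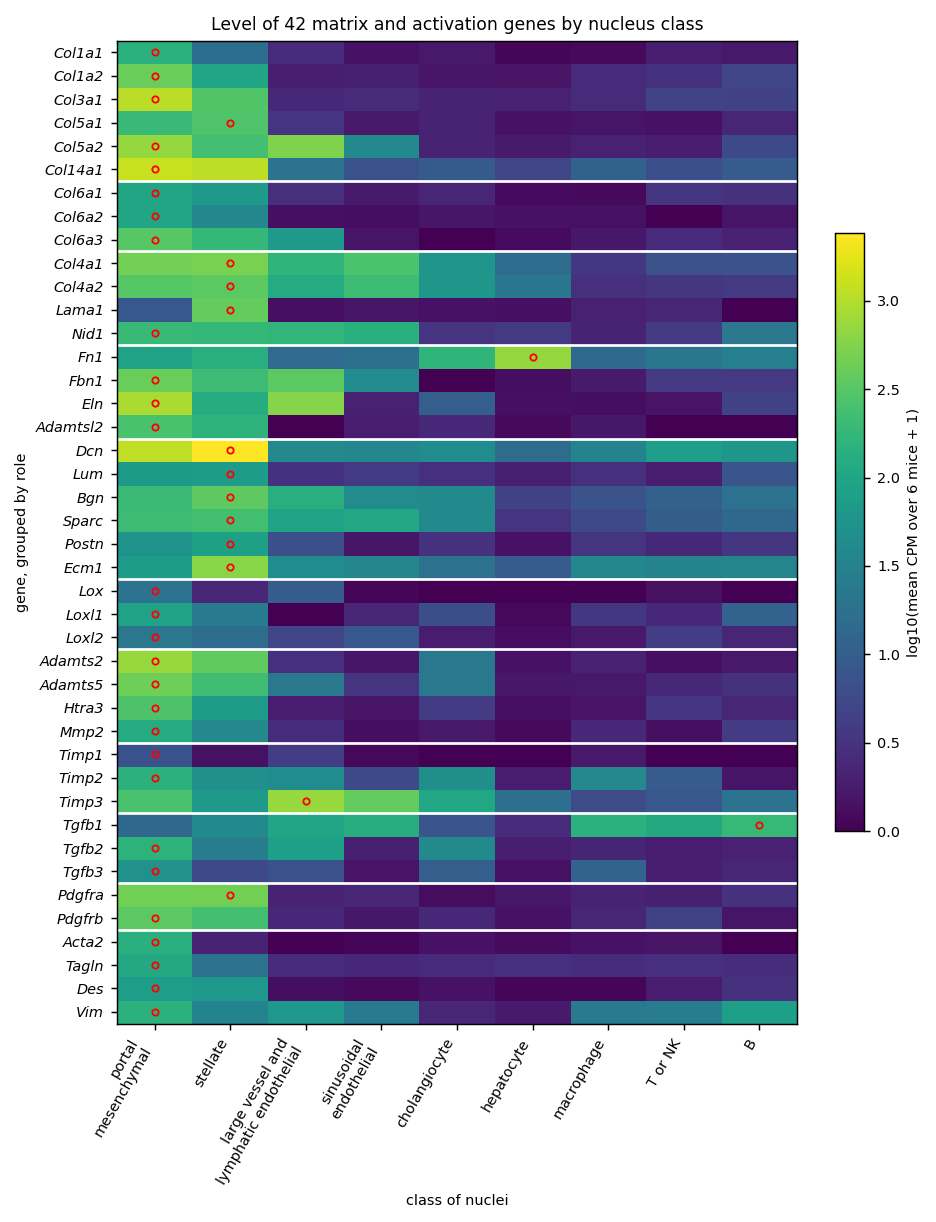
Mean level over 6 mice of each of the 42 genes (rows, grouped by role, white lines between roles) in the 9 main classes of nuclei (columns), as log10 of CPM plus 1. Red circles mark the highest class, which is portal mesenchymal for 28 genes and stellate for 11.

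Fibrillar and fibril-associated collagens were made by both mesenchymal classes. Col3a1, the chain of type III collagen, was at 2000, 961 and 230 CPM in portal mesenchymal nuclei of controls 1, 2 and 3 and at 1133, 1278 and 843 CPM in the knockouts 1, 2 and 3. In stellate nuclei the same mice had 283, 320 and 184 CPM and 361, 349 and 258 CPM. Control 3 was lowest in both classes, and 84.7% of the UMIs of Col3a1 lay in stellate nuclei. Col1a2, the second chain of type I collagen, was at 646, 435 and 216 CPM (controls) and 160, 556 and 391 CPM (knockouts) in portal mesenchymal nuclei, above the 77.9 to 118 CPM of stellate nuclei in every mouse. Its partner chain Col1a1 averaged 143 CPM in portal mesenchymal nuclei (27 to 233 over mice) and 15.6 CPM in stellate nuclei (7.29 to 29.6). A Col1a1 UMI was found in 7.02% of stellate nuclei (median depth 4875 UMIs) and 40.8% of portal mesenchymal nuclei (4078 UMIs), against 0.153% of hepatocytes (10341.5 UMIs), taken as a guide to free RNA that may be too low for other classes. Thinned to 1500 UMIs each, these shares were 2.36%, 17.9% and 0%.

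Col14a1, a collagen on the surface of fibrils, was at 1585, 1096 and 1027 CPM in portal mesenchymal nuclei of controls and at 1183, 1698 and 946 CPM in those of knockouts. Stellate nuclei were near that level, at 1360, 1224 and 1278 CPM in the controls and 1033, 868 and 881 CPM in the knockouts. The stellate groups did not overlap, which is taken up below. Col5a1 and Col5a2 encode chains of type V collagen, which starts fibrils. Col5a1 was highest in stellate nuclei with a mean of 279 CPM (218 to 352) and had 95.8% of its UMIs there. Col5a2 was at 878, 510 and 351 CPM (controls) and 892, 969 and 596 CPM (knockouts) in portal mesenchymal nuclei, and in large vessel and lymphatic endothelium it averaged 536 CPM. Of its UMIs, 52.3% were in stellate and 20.6% in large vessel nuclei, so the 2 chains of 1 collagen were spread over different classes.

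Collagen VI forms beaded filaments around cells, and its 3 chains were mesenchymal. Col6a1 was at 73.2, 158 and 81.1 CPM in the controls and at 70.2, 30.1 and 185 CPM in the knockouts in portal mesenchymal nuclei, from 53 UMIs. Col6a2 was at 134, 120 and 108 CPM and at 30.1, 52.6 and 144 CPM there, from 52 UMIs. Col6a3 was at 354, 428 and 270 CPM and at 261, 413 and 206 CPM. In all 3 the groups overlapped, and 84% to 88.2% of their UMIs were in stellate nuclei. Col6a3 was the 1 chain above 5 CPM outside mesenchyme, at 64.6 CPM in large vessel and lymphatic endothelium.

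Basement membrane genes were shared by stellate cells and endothelium. Col4a1 and Col4a2 are the paired chains of type IV collagen, and their genes lie head to head on chromosome 8 with starts that overlap (11198423 to 11312826 and 11312805 to 11449287, mm10). Col4a1 was at 445, 517 and 629 CPM in control and 479, 524 and 455 CPM in knockout stellate nuclei. Col4a2 was at 258, 389 and 426 CPM and at 342, 233 and 386 CPM. The 2 genes had nearly the same order of classes, stellate, portal mesenchymal, sinusoidal and large vessel nuclei, and the ratio of Col4a2 to Col4a1 UMIs was 0.631 to 0.807 in these 4 classes against 1.38 in hepatocytes and 1.03 in cholangiocytes. Since sinusoidal nuclei are so many, they held 42.5% of Col4a1 and 44.5% of Col4a2 UMIs. Nid1, the nidogen that bridges laminin and collagen IV, was at 171, 218 and 189 CPM (controls) and 191, 203 and 185 CPM (knockouts) in portal mesenchymal nuclei, which overlapped with the levels in stellate (mean 178 CPM) and large vessel nuclei (166 CPM), while sinusoidal nuclei (128 to 163 CPM) lay below. Lama1, the laminin alpha 1 chain (chromosome 17, 67697259 to 67822647, mm10), stood apart from this pattern. It was at 426, 307 and 357 CPM in control and 371, 421 and 415 CPM in knockout stellate nuclei, had 98.8% of its UMIs there and averaged 7.51 CPM in portal mesenchymal nuclei (6 UMIs).

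**Figure D2:**
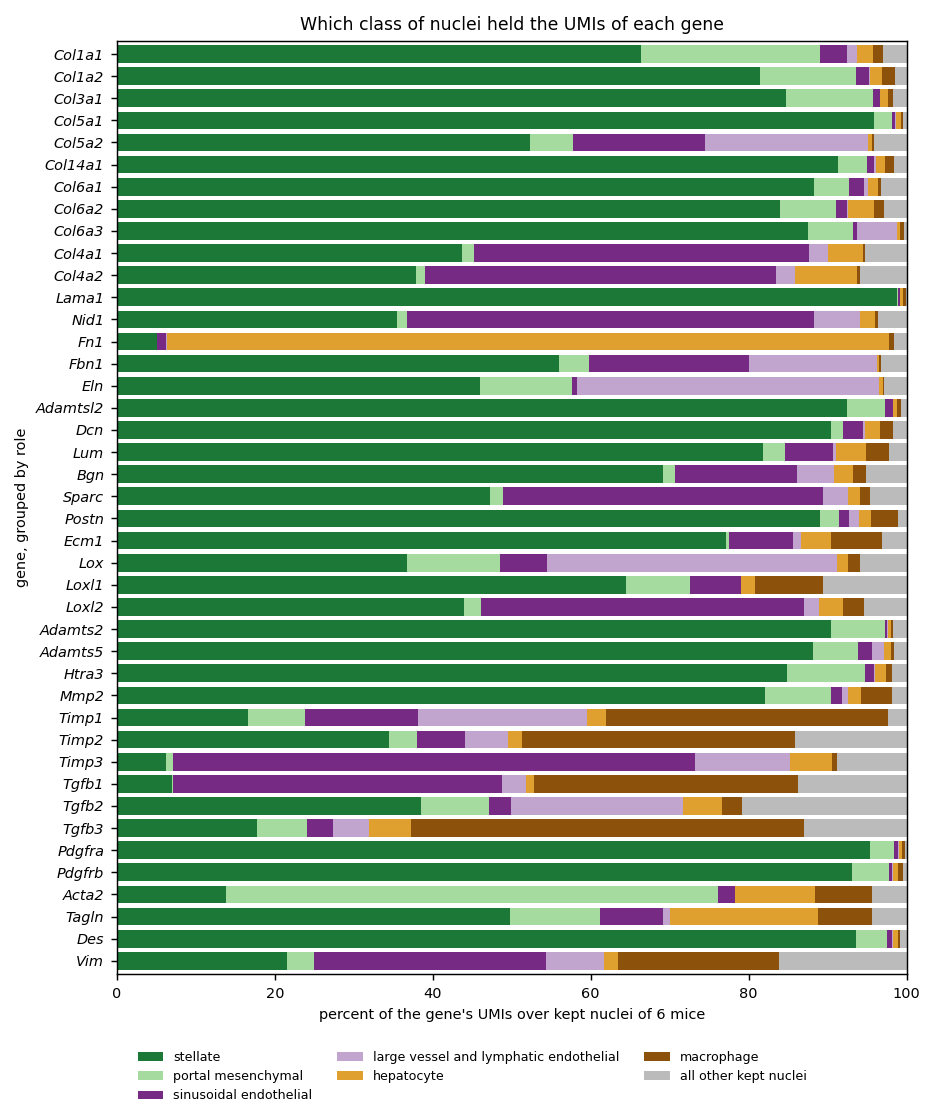
Share of the UMIs of each gene (horizontal axis, percent, all 6 mice together) by class of nuclei (colours), with nuclei of all other classes and of clusters left out in grey. Lama1 lay almost wholly in stellate nuclei (98.8%), Fn1 in hepatocytes (91.4%) and Timp3 in sinusoidal endothelium (66.1%).

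Fibronectin, elastin and their partners came from different cells. Fn1 was at 763, 602 and 692 CPM in control and 598, 734 and 832 CPM in knockout hepatocytes, which make plasma fibronectin, and 91.4% of its UMIs were there. In stellate nuclei Fn1 was at 155, 78.6 and 97.4 CPM and at 148, 206 and 129 CPM. The summed hepatocyte markers in those stellate nuclei were 680, 773 and 885 CPM and 999, 1325 and 1845 CPM, higher in knockouts for 10 of 10 markers, with none at 0, and their part in the Fn1 level was not tested. Eln, the elastin gene (chromosome 5, 134702593 to 134747323, mm10), was at 1280, 1524 and 770 CPM in control and 802, 443 and 535 CPM in knockout portal mesenchymal nuclei. Large vessel and lymphatic endothelium was next at a mean of 579 CPM (246 to 1114), and stellate nuclei had 124 CPM. Fbn1, the fibrillin that carries elastin, was at 500, 428 and 351 CPM and at 321, 443 and 452 CPM in portal mesenchymal nuclei and averaged 342 CPM in large vessel nuclei. Adamtsl2 encodes a matrix protein of the ADAMTS-like family without protease activity, which binds fibrillin and latent TGF-beta binding protein. It was at 207, 390 and 284 CPM and at 70.2, 97.7 and 494 CPM in portal mesenchymal nuclei, and at 58.8, 307 and 185 CPM and 68.1, 87.1 and 210 CPM in stellate nuclei. Controls 2 and 3 and knockout 3 were high in both classes and knockouts 1 and 2 low, and the groups overlapped.

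All 6 proteoglycans and matricellular genes were highest in stellate nuclei, 4 of them (Dcn, Bgn, Postn and Ecm1) also on TMM-scaled totals. Dcn, decorin, which binds collagen and TGF-beta, was at 2364, 2257 and 2456 CPM in control and 2390, 2539 and 2455 CPM in knockout stellate nuclei, above the 772 to 1638 CPM of portal mesenchymal nuclei in every mouse. Ecm1, which in liver keeps TGF-beta in its latent form, was at 444, 493 and 630 CPM and at 545, 727 and 735 CPM in stellate nuclei, against a mean of 73.1 CPM in portal mesenchymal nuclei. Bgn, biglycan, was at 271, 391 and 374 CPM and at 278, 360 and 403 CPM. Sparc, a collagen-binding protein, was at 255, 205 and 224 CPM and at 187, 270 and 232 CPM, with 47.2% of its UMIs in stellate and 40.5% in sinusoidal nuclei. None of these 4 showed groups apart in stellate nuclei. Lum, lumican, was at 69.2, 75.2 and 72.9 CPM and at 68.5, 72.9 and 67.3 CPM. Postn, periostin, was at 54.5, 45.2 and 52.9 CPM in the controls and at 97.8, 72.5 and 178 CPM in the knockouts, and the groups did not overlap.

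Crosslinking enzymes had few UMIs. Lox, lysyl oxidase, had 68 UMIs in all kept nuclei, of which 25 were in stellate nuclei (1.51 CPM over all mice, exact Poisson 95% interval 0.977 to 2.23) and 8 in portal mesenchymal nuclei, where 2 mice had none. It was at 7.68 to 9.52 CPM in large vessel and lymphatic endothelium of every mouse. Loxl1, which crosslinks elastin, was at 122, 105 and 122 CPM in control and 20.1, 97.7 and 61.7 CPM in knockout portal mesenchymal nuclei (51 UMIs), without overlap, and at 24 CPM on average in stellate nuclei. Loxl2 was at 12.2, 15 and 0 CPM and at 20.1, 37.6 and 41.1 CPM in portal mesenchymal nuclei, from 12 UMIs, too few to order mice by, and 43.9% and 40.9% of its UMIs were in stellate and sinusoidal nuclei.

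Proteases were mesenchymal throughout. Adamts2, which trims procollagen, was at 732, 1148 and 608 CPM in control and 461, 1037 and 308 CPM in knockout portal mesenchymal nuclei, against 363 CPM on average in stellate nuclei. Adamts5, which cuts proteoglycans, was at 500, 285 and 568 CPM and at 451, 428 and 350 CPM. Htra3, a secreted serine protease, was at 171, 383 and 230 CPM and at 140, 173 and 535 CPM. In stellate nuclei these 3 were highest in control 2, the library with the most nuclei of the Grid1 type described below. Mmp2, gelatinase A, was at 110, 105 and 149 CPM and at 130, 75.2 and 144 CPM in portal mesenchymal nuclei, above the 26.1 to 53.1 CPM of stellate nuclei.

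Among inhibitors of metalloproteinases, Timp3 was endothelial, while Timp1 and Timp2 were highest in portal mesenchymal nuclei and had most UMIs in macrophages. Timp3 was at 492, 787 and 857 CPM in control and 623, 689 and 872 CPM in knockout large vessel and lymphatic endothelium, and 66.1% of its UMIs were in sinusoidal nuclei. Timp2 was at 134, 165 and 94.6 CPM and at 170, 135 and 185 CPM in portal mesenchymal nuclei, with 34.5% of its UMIs in macrophages and as much in stellate nuclei. Timp1, which is induced in fibrosis, had 42 UMIs in all kept nuclei, of which macrophages held 35.7%. Stellate nuclei had 7 (0.423 CPM, exact Poisson 95% interval 0.17 to 0.871). In portal mesenchymal nuclei Timp1 was at 0, 0 and 27 CPM and at 10, 0 and 0 CPM, from 3 UMIs. Timp1 and Timp3 lie within Syn1 and Syn3, genes on the other strand. Use of strand in counting is not stated in the sources used here, and whether reads of such pairs were kept apart was not tested. Of the 42 genes, 19 overlap another counted feature, 1 of them (Timp2) on the same strand.

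The TGF-beta ligands also divided by class. Tgfb1 was at 224, 163 and 112 CPM in control and 225, 245 and 116 CPM in knockout B nuclei, with macrophages (144 CPM), sinusoidal endothelium (127 CPM) and T or NK nuclei (111 CPM) at overlapping levels and stellate nuclei at 39 CPM. Tgfb2 was at 85.4, 150 and 189 CPM and at 431, 52.6 and 20.6 CPM in portal mesenchymal nuclei, at a mean of 81.2 CPM in large vessel endothelium and at 25.4 CPM in stellate nuclei. Knockout 1, with the highest Tgfb2 level, also had 9 of the 24 smooth muscle-like nuclei, in which Tgfb2 was at 566 CPM against 82 CPM in the fibroblast-like ones. Both are pooled over mice, so the first is weighted by knockout 1 itself, and the part of these nuclei in its level was not tested. Tgfb3 was at 85.4, 7.51 and 27 CPM and at 120, 37.6 and 20.6 CPM in portal mesenchymal nuclei (28 UMIs), and 49.7% of its UMIs were in macrophages.

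PDGF receptors marked mesenchyme. Pdgfra was at 467, 518 and 520 CPM in control and 393, 403 and 457 CPM in knockout stellate nuclei, with 95.4% of its UMIs there. Pdgfrb was at 317, 338 and 284 CPM and at 381, 346 and 370 CPM in portal mesenchymal nuclei, and in stellate nuclei it averaged 234 CPM with 93.1% of its UMIs. For Pdgfra, portal mesenchymal nuclei averaged 452 CPM, so the 2 classes did not differ beyond their spread.

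All 4 contractile and cytoskeletal genes were highest in portal mesenchymal nuclei, and Acta2 was near 0 in stellate nuclei. Acta2, alpha smooth muscle actin and the usual marker of activated stellate cells (chromosome 19, 34241090 to 34255590, mm10), was at 146, 97.6 and 0 CPM in control and 381, 158 and 41.1 CPM in knockout portal mesenchymal nuclei. Stellate nuclei had 1.01, 1.56 and 0 CPM and at 0, 3.96 and 0.418 CPM, from 19 UMIs in 3204 nuclei (1.15 CPM, exact Poisson 95% interval 0.691 to 1.79). An Acta2 UMI was found in 0.375% of stellate nuclei and in 0.134% of hepatocytes, or 0.22% and 0% when thinned. Mean levels were 0.526 CPM in T or NK nuclei and 0.239 CPM in hepatocytes. Within portal mesenchyme Acta2 was at 822 CPM in the smooth muscle-like and 19 CPM in the fibroblast-like nuclei, pooled over mice. Tagln, transgelin, was at 183, 75.1 and 0 CPM and at 191, 120 and 82.3 CPM in portal mesenchymal nuclei and at 9.41, 15.9 and 5.75 CPM and 11.5, 38.8 and 23.4 CPM in stellate nuclei. Des, desmin, a filament of mouse stellate cells, was at 61, 52.5 and 149 CPM and at 70.2, 67.6 and 61.7 CPM in portal mesenchymal nuclei, against 61.7 CPM on average in stellate nuclei, where 93.7% of its UMIs were. Vim, vimentin, was at 134, 173 and 40.5 CPM and at 170, 150 and 226 CPM in portal mesenchymal nuclei, with B nuclei at 81.2 CPM and large vessel endothelium at 62.6 CPM.

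Stellate nuclei fell into 3 clusters, which the type markers named as a Piezo2 Nkain2 type (1423 nuclei), a Grid1 type (473) and a cluster between them (1308). Among the markers of the first are Ngfr, Il34 and Igfbp3 and among those of the other Rspo3, Spon2, Cxcl12 and Podn, known from mouse liver as markers of stellate cells near portal and near central veins. The Grid1 type made up 3.18%, 40% and 11.1% of stellate nuclei in controls and 9.76%, 12.8% and 12.1% in knockouts. Control 2 stood apart, holding 223 of the 473 nuclei, whereas Grid1 type and between cluster together made up 52.3% to 62.2% and 49.8% to 59.6%, so libraries differed in how nuclei split between these 2 clusters. The mean share was 18.1% ± 19.4 for controls and 11.6% ± 1.61 for knockouts (SD, n = 3 each), with a two-sided exact permutation p of 0.9, where 0.1 is the smallest that 3 against 3 mice allow. The difference of -6.52 percentage points was 4.42 without control 2. It was 1.68 with doublet calls kept and 0.0979 with members among the variable genes. Those clusterings named no stellate cluster as between the types, and their Grid1 type held 1140 and 1334 nuclei, not 473.

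The module split along these types. In 11 genes the Grid1 type lay above the Piezo2 Nkain2 type in every mouse with no overlap of the 6 and 6 values: Col6a3, Eln, Adamtsl2, Loxl1, Adamts2, Adamts5, Htra3, Mmp2, Timp2, Pdgfra and Vim. In 6 genes the Piezo2 Nkain2 type lay above: Col14a1, Col4a1, Lama1, Fn1, Postn and Ecm1. The other 25 overlapped. Of 12416 genes with at least 30 UMIs over both types, 3.91% were higher in the Grid1 type and 2.63% in the other without overlap, and 39 of the 42 genes passed that minimum. These counts describe the clusters, which were made from the same nuclei, and carry no test.

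The Grid1 side held proteases, an inhibitor and the elastic fibre genes Eln and Adamtsl2. Fbn1, of the same role group, went the other way, at 199 CPM in the Grid1 and 250 CPM in the Piezo2 Nkain2 type. It was higher in the Grid1 type of 0 of 6 mice, although ranges overlapped. Htra3 was at 9.64, 32.1, 18.5, 18.6, 13.6 and 26.5 CPM in the Piezo2 Nkain2 type of controls 1 to 3 and knockouts 1 to 3 and at 111, 318, 212, 185, 112 and 336 CPM in their Grid1 type. Adamtsl2 was at 17.9, 106, 79.2, 17.7, 29.7 and 42.6 CPM in the first and 357, 509, 431, 207, 224 and 647 CPM in the second. Eln was at 51, 38.3, 29.2, 47.3, 68.8 and 56.3 CPM against 379, 404, 230, 170, 288 and 339 CPM. The ratios of means were 10.7, 8.09 and 6.22. Adamts5 (5.44), Loxl1 (5.23), Mmp2 (3.89), Col6a3 (3.78), Timp2 (3.22) and Vim (2.44) followed, and Pdgfra (1.88) and Adamts2 (1.71) had the smallest ratios of the 11. All 11 had an intermediate mean in the cluster between the types.

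The Piezo2 Nkain2 side held basement membrane, fibronectin and periostin. Postn was at 57.9, 77.3, 72.3, 105, 84.9 and 244 CPM in that type and at 11.1, 8.2, 18, 25.8, 16 and 21 CPM in the Grid1 type, from 34 UMIs there, a ratio of means of 6.41. Fn1 was at 236, 136, 148, 237, 317 and 187 CPM against 44.6, 36.1, 71.8, 84.9, 109 and 52.5 CPM (3.17). Lama1 was at 532, 440, 456, 533, 592 and 541 CPM against 123, 184, 172, 140, 157 and 224 CPM (3.1). The 2 basement membrane collagens moved with Lama1, Col4a1 without overlap (1.57) and Col4a2 with overlap but lower in the Grid1 type of all 6 mice (1.6). Ecm1 (2.14) and Col14a1 (1.88) completed the group. Postn, Fn1, Lama1 and Col14a1 had an intermediate mean in the cluster between the types, but Ecm1 and Col4a1 did not. Ecm1 was highest there (657 CPM, against 634 CPM in the Piezo2 Nkain2 type). Col4a1 was lowest there (397 CPM, against 401 CPM in the Grid1 type). Type I collagen went the other way, with Col1a1 at 3.64 and Col1a2 at 1.62 times the level in the Grid1 type and higher there in 6 of 6 mice, although ranges overlapped.

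**Figure D3:**
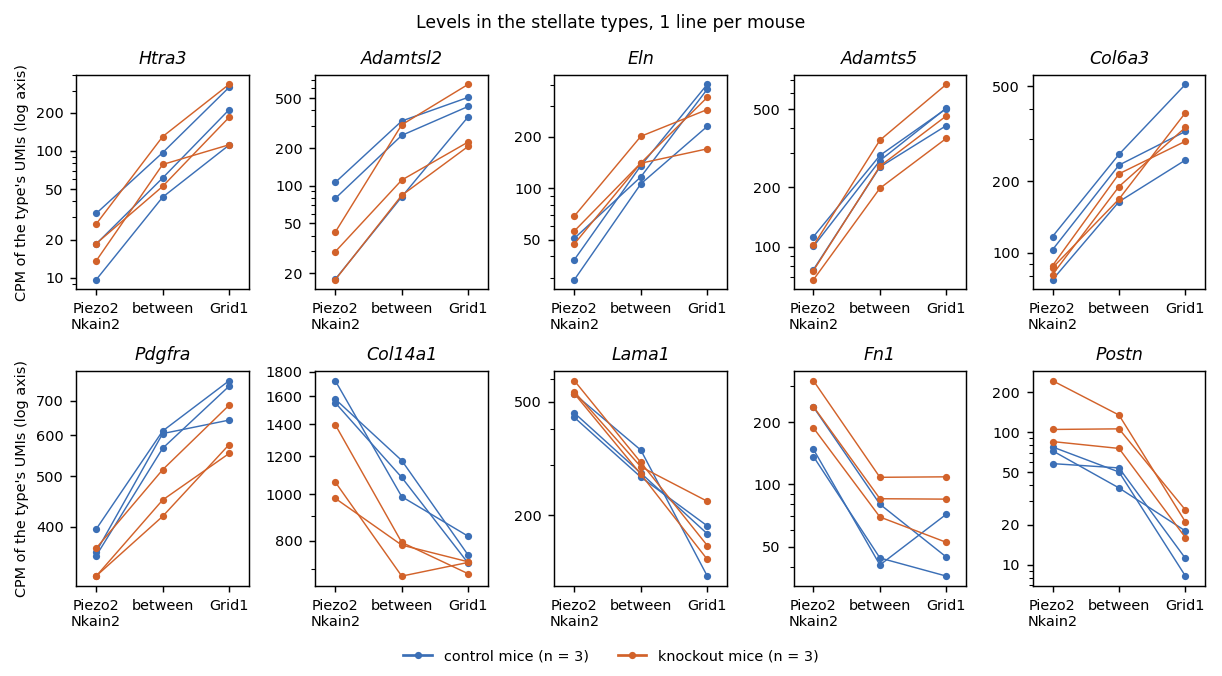
Levels of 10 genes in the 3 stellate clusters (horizontal axis) as CPM on a log axis, 1 line per mouse, controls blue and knockouts orange. The first 6 genes are higher in the Grid1 than in the Piezo2 Nkain2 type of all 6 mice and the last 4 are lower.

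Knockout and control stellate nuclei did not differ in any of these genes past the threshold. In edgeR's quasi-likelihood test over 12027 genes, adjusted by Benjamini-Hochberg, 0 of the 39 tested members passed 0.05, against 0.0499% of all tested genes, and 5 members had an unadjusted p under 0.05, a level that 4.05% of all tested genes reached. DESeq2 called 1 member, Postn, and 0.108% of all tested genes. With no low-count filter edgeR called 3 members, Postn, Tagln and Col14a1, and 0.279% of 22247 genes. Acta2, Lox and Timp1 were too low to test. The median log2 change of the members was -0.05, against 0.00 over all tested genes (-0.0015), with 17 higher and 22 lower. The sign of that median turned on leaving out 1 mouse: it was 0.04 without control 2 (22 higher, 17 lower), 0.0026 without control 1 and 0.012 without knockout 1. The summed level of all 42 genes was 9437, 10344 and 9839 CPM in the controls and 9355, 9954 and 9855 CPM in the knockouts. Groups did not overlap in 7 of 39 members, 5 of them lower in knockouts, and in 9.6% of all tested genes.

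The 5 genes with small unadjusted p are given with levels on TMM-scaled totals. Col14a1 (chromosome 15, 55307750 to 55520803, mm10) was at 1387, 1237 and 1341 CPM in the controls and 1042, 840 and 873 CPM in the knockouts. The means were 1322 ± 76.9 and 918 ± 109 CPM (SD, n = 3 each), a log2 change of -0.52 (SE 0.13), edgeR unadjusted p 0.00193, adjusted p 0.844. Its sign held in all 14 alternatives, and its adjusted p was 0.0301 to 1 over them, under 0.05 with no low-count filter. Tgfb2 (chromosome 1, 186622792 to 186705989) was at 17.8, 22.1 and 19.3 CPM in the controls and 33.5, 33.7 and 26.1 CPM in the knockouts, a log2 change of 0.66 (SE 0.177, edgeR unadjusted p 0.00346, adjusted p 0.9996). The knockouts lay below all controls in Col14a1 and above all controls in Tgfb2, and neither gene passed.

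Postn (chromosome 3, 54361109 to 54391037) was at 55.6, 45.7 and 55.5 CPM in the controls and 98.8, 70.1 and 177 CPM in the knockouts. The log2 change was 1.14 (SE 0.337, edgeR unadjusted p 0.0132, adjusted p 0.9996), and its size rested in part on knockout 3, without which it was 0.70. DESeq2 gave it an adjusted p of 0.0379 and edgeR with no low-count filter 0.00628, and over all its alternatives the adjusted p lay between 0.00628 and 1. Pdgfra (chromosome 5, 75152292 to 75198215) was at 476, 524 and 546 CPM and at 397, 390 and 453 CPM, a log2 change of -0.32 (SE 0.119, edgeR unadjusted p 0.0215, adjusted p 0.9996). Loxl1 (chromosome 9, 58287738 to 58313186) was at 32.9, 27.4 and 25.8 CPM and at 16.9, 23.8 and 18.7 CPM, a log2 change of -0.54 (SE 0.189, edgeR unadjusted p 0.0154, adjusted p 0.9996), which was -0.21 with nuclei thinned to 1500 UMIs. In all 5 genes the groups did not overlap. The genes were picked by p, so this adds no support beyond their p-values.

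**Figure D4:**
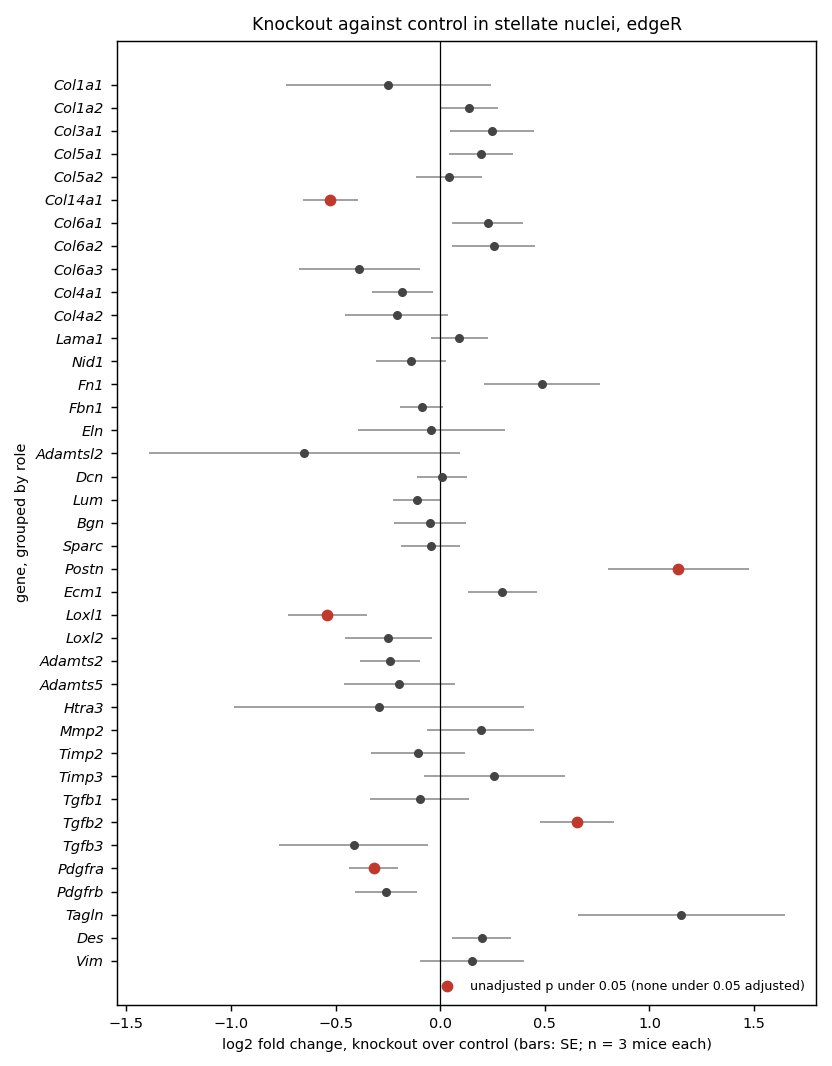
Log2 fold change of knockout over control (horizontal axis, bars 1 SE, n = 3 mice each) in stellate nuclei for the 39 tested genes, grouped by role. Red points mark the 5 genes with an unadjusted p under 0.05, and no gene passed after adjustment.

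The type I and III collagens and transgelin did not pass the threshold. Col1a1 had a log2 change of -0.25 (SE 0.489), Col1a2 of 0.14 (SE 0.137), Col3a1 of 0.25 (SE 0.2) and Tagln of 1.15 (SE 0.495, edgeR unadjusted p 0.0532). Tagln passed with no low-count filter (adjusted p 0.0155), from levels that overlapped between groups. Adamtsl2 was at -0.65 (SE 0.743), the widest error among the tested members, and its levels overlapped, with 310.3 CPM in control 2 and 68.8 CPM in knockout 1. Hepatocyte markers in these stellate nuclei were higher in all 3 knockouts (above), portal fibroblast markers were at 76, 172 and 106 CPM in the controls and at 80, 86 and 81 CPM in the knockouts, and smooth muscle markers were at 1074 to 1252 and 967 to 1184 CPM. Their part in these differences was not tested.

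**Figure D5:**
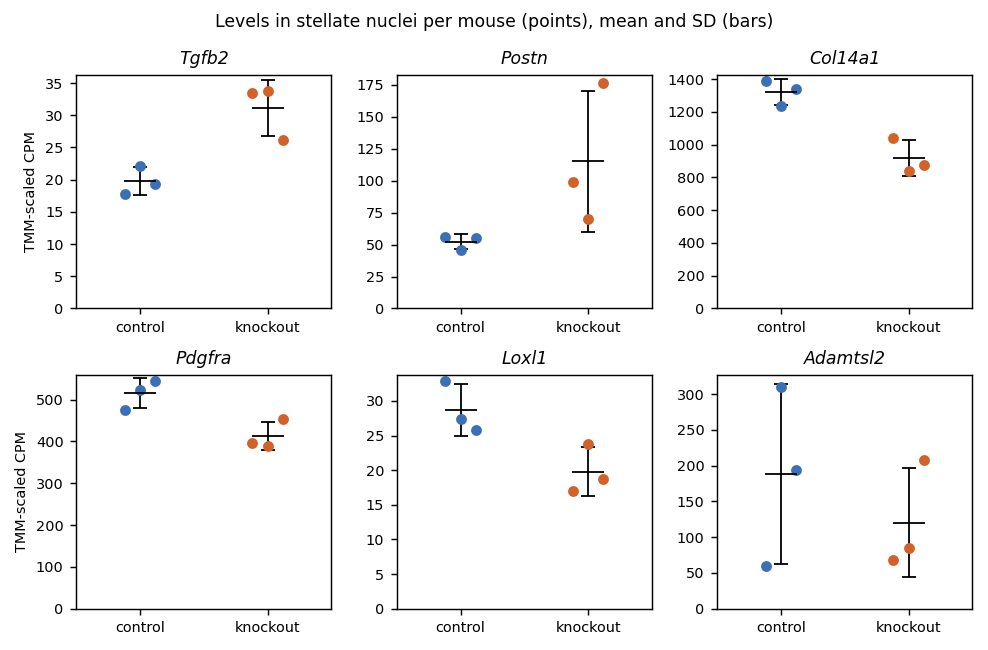
TMM-scaled CPM in stellate nuclei of each mouse (points) with the mean and SD of 3 mice (bars), for the 5 genes with an unadjusted p under 0.05 and for Adamtsl2. Postn in knockout 3 (177 CPM) and Adamtsl2 in control 2 lie farthest from the rest of their groups.

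The types were also tested apart. Group levels printed beside a log2 change are, from here on, on TMM-scaled totals of the tested genes of that fit. Counts of members with an unadjusted p under 0.05 say which genes are named. They are not read as an excess over all genes. In Piezo2 Nkain2 type nuclei edgeR called 0 of 38 tested members (0.0818% of 9785 genes), 5 members had an unadjusted p under 0.05 and DESeq2 called 0. Col14a1 was at 1678 ± 99.2 and 1150 ± 244 CPM (log2 change -0.54, SE 0.156, adjusted p 0.838 in edgeR) and Tgfb2 at 28.1 ± 4 and 45.7 ± 8.38 CPM (0.70, SE 0.212, adjusted p 0.964), with no overlap of groups. The Tgfb2 value was 0.40 with thinned nuclei. With no low-count filter edgeR called 2 members in this type, Tagln and Col14a1, and 0.281% of 20306 genes. Lum was at 42, 58.8 and 55.2 CPM in the controls and 38.8, 35.9 and 29 CPM in the knockouts (-0.59, SE 0.205, edgeR unadjusted p 0.0124). Tagln was at 14, 13.5 and 4.06 CPM and at 13.8, 43.4 and 29.8 CPM (1.44, SE 0.477, edgeR unadjusted p 0.0134) and Eln at 51.8, 39.7 and 30.9 CPM and at 48.3, 67.6 and 56.3 CPM (0.48, SE 0.215, edgeR unadjusted p 0.0409), both with overlap. The Eln value was 0.32 without control 3 and 0.30 with thinned nuclei. Adamtsl2 was at -1.21 (SE 0.735) in this type and passed only without control 1, at -1.68 (SE 0.27, adjusted p 0.0375 in edgeR), where 0.0986% of 10140 genes passed. Its level in control 1 was 18.2 CPM, against 110 and 83.7 CPM in the other controls.

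In Grid1 type nuclei edgeR called 0 of 33 tested members (0.102% of 4899 genes), 3 had an unadjusted p under 0.05 and DESeq2 called 0. Loxl1 was at 101, 61.8 and 120 CPM in the controls and 32.9, 59 and 43.3 CPM in the knockouts (log2 change -0.90, SE 0.371, edgeR unadjusted p 0.0274), and Dcn at 2815, 2696 and 3084 CPM and at 2477, 2268 and 2198 CPM (-0.31, SE 0.14, edgeR unadjusted p 0.0418), both without overlap. The Dcn value was -0.06 with doublet calls kept and -0.02 with members among the variable genes, and its unadjusted p was under 0.05 in 4 of 14 alternatives. In these settings no cluster lay between the types, and the Grid1 type was a larger set of 1140 and 1334 nuclei. Col4a2 was at 239, 423 and 410 CPM and at 226, 188 and 343 CPM (-0.59, SE 0.248, edgeR unadjusted p 0.0311), with overlap, and this was -0.89 without knockout 3 and -0.38 with members among the variable genes. Control 1 gave only 20 nuclei here. With the cluster between the types added, 0 of 38 members passed (0.0385% of 10388 genes) and 4 had an unadjusted p under 0.05 in edgeR. With the Grid1 type left out of stellate nuclei, 0 of 38 passed (0.0522% of 11488 genes) and 6 had an unadjusted p under 0.05, and Col14a1 had a log2 change of -0.60 (edgeR adjusted p 0.352). Both fits were added after seeing the data, and DESeq2 was not run on them.

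Whether the knockout effect differed between the types was tested as a type by genotype term with mouse as a block. Of 39 members tested, edgeR called 0 (0.0524% of 11448 genes) and DESeq2 called 0. In DESeq2, 2 members and 147 of all genes had an unadjusted p under 0.05. In edgeR 7 members did, as did 470 of all 11448 genes. Eln had the smallest p, with a difference of log2 changes, Grid1 minus Piezo2 Nkain2 type, of -0.92 (SE 0.262, edgeR unadjusted p 4.96e-04, adjusted p 0.27). Lum (0.99), Adamtsl2 (0.88), Col14a1 (0.43), Col5a2 (0.45), Col1a1 (1.21) and Dcn (-0.31) were the others, none past adjustment (adjusted p 0.834 to 1). Adamtsl2 passed without control 1 (0.0988% of 11138 genes), and without control 1 and knockout 2 (0.0735% of 10878 genes).

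Portal mesenchymal nuclei, the class with the highest level for most genes, numbered only 12 to 30 per mouse. With a minimum of 10 nuclei, chosen after seeing the data, 29 members could be tested, edgeR called 0 (0.0496% of 2018 genes), 1 had an unadjusted p under 0.05 and DESeq2 called 0. That gene was Eln, with overlap of control 3 and knockout 1. On TMM-scaled totals of the 2018 tested genes it was at 1874, 2228 and 1143 CPM in the controls and 1168, 656 and 781 CPM in the knockouts (log2 change -1.01, SE 0.342, edgeR unadjusted p 0.0096, adjusted p 0.9997). Smooth muscle-like nuclei numbered 1, 7 and 1 in controls and 9, 3 and 3 in knockouts, and smooth muscle markers summed to 1451, 2484 and 1662 CPM and 3198, 1511 and 2426 CPM, whose part in the level was not tested. On totals of all genes, pooled over mice, Eln was at 1163 CPM in the smooth muscle-like and 883 CPM in the fibroblast-like nuclei.

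Endothelium gave a few small p-values and no calls. In sinusoidal nuclei edgeR called 0 of 18 tested members (0% of 12924 genes, 540 of them at an unadjusted p under 0.05, and 24 called by DESeq2), 1 member had an unadjusted p under 0.05, and DESeq2 called 0 members. Dcn was at 40.7, 51.4 and 33.8 CPM in the controls and 29.6, 32.9 and 29.1 CPM in the knockouts (log2 change -0.47, SE 0.162, edgeR unadjusted p 0.0156, adjusted p 0.997), and the change was -0.29 without control 2. These levels lie near the 32.2 to 77.9 CPM of Dcn in macrophage, cholangiocyte, B and T or NK nuclei, classes not known to make decorin. The part of free RNA in the sinusoidal Dcn level was not tested. In large vessel and lymphatic nuclei edgeR called 0 of 17 (0.014% of 7129 genes), 3 had an unadjusted p under 0.05 and DESeq2 called 0. Col5a2 was at 575, 371 and 420 CPM and at 569, 889 and 589 CPM (0.59, SE 0.206, edgeR unadjusted p 0.0123). Tgfb1 was at 131, 117 and 126 CPM and at 102, 84.5 and 61.6 CPM (-0.59, SE 0.233, edgeR unadjusted p 0.0219), and Nid1 at 208, 231 and 180 CPM and at 161, 105 and 175 CPM (-0.51, SE 0.209, edgeR unadjusted p 0.0259). Tgfb1 and Nid1 groups did not overlap, and those of Col5a2 did. The Nid1 value was -0.31 without knockout 2 and -0.10 with thinned nuclei, and the Col5a2 value was 0.35 without knockout 2.

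Elsewhere edgeR also called no member. It called 0 of 10 tested in cholangiocytes (0% of 6625 genes, 286 at an unadjusted p under 0.05, 1 called by DESeq2), where Dcn alone had an unadjusted p under 0.05. It called 0 of 13 in macrophages (0% of 12044 genes, 395 at an unadjusted p under 0.05, 8 called by DESeq2) and 0 of 13 in hepatocytes (0% of 13784 genes, 473 and 18), with 0 members at an unadjusted p under 0.05 in both. Over all kept nuclei it called 0 of 40 (0.0109% of 18272 genes), and 4 members had an unadjusted p under 0.05: Tgfb2, Postn, Pdgfra and Col14a1. DESeq2 called 0 members in each of these 4 fits.

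Other genes of the same pathways in stellate nuclei gave the same picture. Of 108 tested genes in 8 lists, edgeR and DESeq2 each called 0, and 5 had an unadjusted p under 0.05 in edgeR. In the list of TGF-beta receptors, latency and SMAD proteins 5 of 16 were higher and 11 lower, with Smad7, the feedback inhibitor, at 118 ± 11.7 and 93.5 ± 17.6 CPM (log2 change -0.33, SE 0.146). Integrins and matrix receptors were higher in 6 of 17, with Itgb5 at 150 ± 12.4 and 120.1 ± 8.82 CPM (-0.32, SE 0.115). Of the other basement membrane genes 7 of 12 were higher, with Lamb3 at 61.3 ± 23.7 and 38 ± 4.75 CPM (-0.69, SE 0.294). Of other fibril, elastic and matricellular genes 9 of 15 were higher, with Tnc, tenascin C, at 12.5 ± 1.4 and 17.3 ± 2.95 CPM (0.46, SE 0.209). Actin and contractile genes were higher in 10 of 16, with Myh11, the smooth muscle myosin, at 39.8 ± 13.1 and 58.1 ± 7.36 CPM (0.54, SE 0.214). Collagen maturation (5 of 17 higher), matrix proteases and inhibitors (4 of 13) and PDGF ligands (1 of 2) held no gene with an unadjusted p under 0.05, and their leading genes by p were Plod3 (0.55, SE 0.275), Mmp11 (0.44, SE 0.239) and Pdgfd (0.17, SE 0.215). List medians lay between -0.08 and 0.08.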

How the data were processed

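Single-nucleus libraries (10x Chromium 3′) of 6 livers, 3 per group, were analysed from the deposited matrices, which hold raw UMI counts per gene and barcode, made by the authors against mm10. The Cell Ranger version is 7.0.1 per the submitters' processing notes and 7.1.0 per the file headers. Counting strand is not stated in the sources used here.

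Nuclei with at least 500 genes, at least 1000 UMIs and under 5% mitochondrial UMIs were kept, and Scrublet doublet calls (2.22% to 3.77% per library, expected rate 0.06) were removed. Clusters came from scanpy 1.11.5 (3000 variable genes without the 42 genes and Plvap, 30 components, 15 neighbours, Leiden resolution 1). Counts were summed per mouse and class, and knockout was compared with control by edgeR 4.0.16 (quasi-likelihood, TMM, filterByExpr, Benjamini-Hochberg over all genes tested, threshold 0.05), with DESeq2 1.42.0 as alternative. A library needed 20 nuclei in a class. On simulated counts for stellate nuclei, 86% of 100 genes changed by a log2 of 1 and 100% of those changed by 2 were recovered among 11831 genes, with 11 false calls. The changed genes were drawn only from those with many UMIs, and counts had the trended dispersion, not each gene's own. These shares therefore do not carry over to members with few UMIs or a wide spread between mice.

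The 42 genes and all lists were chosen with earlier results of these data known. Named were up to 4 genes per role with the highest level in their highest class, every member with an unadjusted p under 0.05 in the stellate, portal mesenchymal and endothelial fits, and per pathway list the 1 or 2 genes with the smallest p. The labels do not pair mice across groups. P-values of edgeR and DESeq2 set the difference between groups against the spread between these mice. The type by genotype term, with mouse as a block, is set against the spread left within mice.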

Additional observations from a re-analysis of the deposited data

How the results depend on the processing

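Each knockout comparison was repeated under up to 14 alternatives, except the 2 added fits (Grid1 type left out, and Grid1 type with the cluster between), which were run once. In stellate nuclei the count of called members, 0 in edgeR, was 1 with DESeq2 (Postn, among 13 of 12027 genes) and 3 of 42, among 62 of 22247 genes, with no low-count filter (Postn, Tagln and Col14a1, adjusted p 0.00628, 0.0155 and 0.0301 in edgeR). In Piezo2 Nkain2 type nuclei it was 2 with no low-count filter (Tagln and Col14a1, among 57 of 20306 genes) and 0 to 1 on leaving out 1 mouse at a time, the 1 being Adamtsl2 without control 1. Of the pathway genes, 1 was called with no low-count filter. The difference of effects between types was called for 0 to 1 members on leaving out 1 mouse at a time, and for 1 (Adamtsl2) without control 1 and knockout 2. The knockout minus control share of the Grid1 type ranged from -14.0 to 4.42 percentage points on leaving out 1 mouse at a time. It was 1.68 with doublet calls kept and 0.0979 with members among the variable genes, where the Grid1 type was a larger set (1140 and 1334 nuclei against 473). The cause of these changes was not tested. Values for single named genes were tallied together with the count of genes with most UMIs in stellate nuclei. Of these, 248 stayed the same, which for a gene means direction and side of the threshold. Another 5, all of single genes, came past the threshold and 0 reversed. With doublet calls kept, no portal mesenchymal class could be named. No paired analysis was possible because the labels give no replicate numbers shared by the groups. Portal mesenchymal values rest on 12 to 30 nuclei per mouse, which limits what could be detected there.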
